A study of Capra hircus with 4 samples.

Results

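Genes of cholesterol synthesis, uptake and transport were followed across the cell classes of goat ovaries. The list named 34 genes by their known role. No cut on values measured here was used, though earlier results of these data were known. Of the 34 genes, 33 were among the 28944 genes of the count matrices. IDI1, a step between mevalonate and the isoprenoid units, was not found under that symbol and was not analysed here. The 33 genes held 7 enzymes of the mevalonate steps of the pathway (ACAT2, HMGCS1, MVK, PMVK, MVD, FDPS and FDFT1) and 9 enzymes of the sterol steps (SQLE, LSS, TM7SF2, MSMO1, NSDHL, HSD17B7, EBP, SC5D and DHCR7), 16 synthesis genes in all. The remainder were the control genes SREBF1, SREBF2, SCAP, INSIG1 and INSIG2, the uptake genes SCARB1, VLDLR and APOE, the lysosomal genes NPC1, NPC2 and LIPA, the ester genes SOAT1 and LIPE, the transfer genes STARD3 and STARD4, and the efflux genes ABCA1 and ABCG1.

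Cells build cholesterol from acetyl units through mevalonate, squalene and lanosterol. When membranes are poor in sterol, SCAP escorts the SREBP factors (encoded by SREBF1 and SREBF2) out of the endoplasmic reticulum, the INSIG proteins hold them back when sterol is plentiful, and SREBP2 drives the synthesis genes. Cells also take cholesterol from lipoproteins, free it from esters in the lysosome with LIPA, export it from there with NPC1 and NPC2, store it as esters through SOAT1, and hand it to lipoprotein particles through ABCA1 and ABCG1. In the follicle, cholesterol is the substrate of steroid hormones, with theca cells supplying the androgens that granulosa cells turn into estrogens.

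Single-nucleus RNA was sequenced from ovaries of 4 Capra hircus goats, 2 of the polytocous Nubian breed (litters of at least 3) and 2 of the monotocous Du'an breed (litters of 1), with 1 library per goat. Animals of both breeds were about 3 years old, and estrus was synchronised in both with a progesterone device (CIDR, 300 mg) for 17 days. Breed cannot be told apart from anything else that goats of a breed share. The matrices held 48332 nuclei, of which 44734 were kept (8723 to 15848 per library, with 29800057 to 54540864 UMIs). A UMI, a unique molecular identifier, marks 1 captured molecule.

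Nuclei were clustered without any cholesterol gene, and a class was called after a cell type with the suffix "-like". That type was the one whose list of markers was raised most on average. The leading genes of a class need not be such markers, and none was a theca marker in the theca-like class. The classes were rebuilt here, so they need not match those of the study. This gave 13 classes with at least 20 nuclei in at least 2 goats, namely 4 granulosa states (mural-like, cumulus-like, progenitor-like and cycling) and theca-like, smooth-muscle-like, pericyte-like, blood endothelial-like, lymphatic endothelial-like, T or natural killer-like, macrophage-like, epithelial-like and ciliated-like nuclei. Classes were uneven between libraries. Mural-like nuclei numbered 8 and 1514 in the Du'an goats and 5129 and 455 in the Nubian goats, so the mural-like class rested on 3 goats, and ciliated-like nuclei gave sums in 2 goats. A further 13548 nuclei (30.3%) were left unnamed, most often in Du'an replicate 1 (44.9%) and Nubian replicate 2 (53.1%). Each pair of libraries shared 54 to 131 cell barcodes.

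The theca-like class was small, with 57, 97, 74 and 150 nuclei and 120417 to 442782 UMIs per goat, so that a single UMI was worth 8.30 CPM (counts per 1000000 UMIs of the class) in Du'an replicate 1 and 2.26 CPM in Du'an replicate 2. The class was named from theca markers, so their levels describe it and are no check of the name. CYP17A1, the androgen-making enzyme of theca, stood at 24.9, 129, 139 and 111 CPM there, against 0 to 0.910 CPM in mural-like nuclei, and the 7 theca markers summed to 644 to 1744 CPM against 9.93 to 344 CPM in the other 12 classes. The 9 mural granulosa markers summed to 1021 to 6433 CPM in theca-like nuclei, above the 85.8 to 4015 CPM of the remaining non-granulosa classes at both ends and below the 15509 to 16641 CPM of mural-like nuclei. LHCGR, one of these markers, averaged 1421 CPM in theca-like nuclei and at most 189 CPM (pericyte-like) in the remaining non-granulosa classes. CYP19A1 and INHBA averaged 162 and 256 CPM in theca-like and 173 and 259 CPM in pericyte-like nuclei. The part of granulosa RNA in the theca-like values was not tested.

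Counts were summed per goat and class, since nuclei of 1 animal are not replicates, and edgeR's quasi-likelihood test compared classes within goats (goat as block), with p-values adjusted by Benjamini-Hochberg over 14733 genes. A gene was called at an adjusted p under 0.05. Of the 33 genes, 31 passed edgeR's filter on low counts, and ACAT2 and EBP did not. Levels are given as CPM in the order Du'an replicate 1, Du'an replicate 2, Nubian replicate 1, Nubian replicate 2, and a mean over several classes was taken on the log2(CPM + 1) scale and turned back into CPM. Such a mean covers the classes with a sum in that goat. Du'an replicate 1 had no mural-like sum, so its value for the mural-like and cumulus-like states is that of cumulus-like nuclei alone. Levels were compared for 1 gene between classes, never between genes, because counts of nuclear RNA depend on gene length. CPM were taken on plain UMI totals, while log2 fold changes came from the edgeR fit with its scaling factors (TMM). A fold change therefore need not equal the ratio of the CPM printed beside it, and can lie outside the ratios of all goats.

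The 16 synthesis genes together were highest in 3 of the 4 granulosa states. Their summed level was 676 ± 112 CPM (SD, n = 4 goats) in cycling, 664 ± 123 CPM (n = 4) in cumulus-like and 644 ± 155 CPM (n = 3) in mural-like nuclei, 3 values that lay within their spread. Epithelial-like nuclei followed with 484 ± 298 CPM and the widest spread, from 279 CPM in Nubian replicate 1 to 912 CPM in Du'an replicate 2. Theca-like nuclei held an intermediate 329 ± 31.5 CPM, and their lowest goat (307 CPM) lay above the highest progenitor-like goat (245 CPM) and below the lowest mural-like goat (531 CPM). The progenitor-like granulosa state sat at 190 ± 36.7 CPM, beside macrophage-like (190 ± 54.7 CPM), pericyte-like (194 ± 75.8 CPM) and ciliated-like nuclei (177 ± 17.0 CPM, n = 2), and these 4 neighbours did not differ beyond their spread. The remaining classes, blood endothelial-like, T or natural killer-like, lymphatic endothelial-like and smooth-muscle-like nuclei, had means of 237, 234, 228 and 210 CPM.

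**Figure D1:**
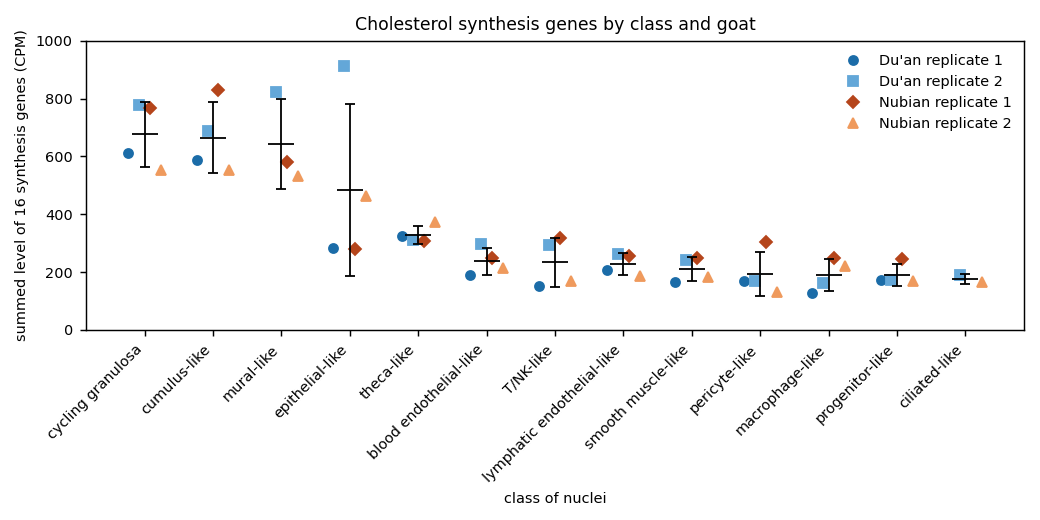
Summed level of the 16 synthesis genes (vertical axis, CPM) in each of 13 cell classes. Points are goats and bars the mean ± SD. Cycling, cumulus-like and mural-like nuclei stand at 644 to 676 CPM on average, and progenitor-like nuclei at 190 CPM.

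Within each goat, most pairs of the 14 synthesis genes that passed the filter correlated positively across classes. The median Pearson correlation of the 91 gene pairs was 0.293 over the 11 classes of Du'an replicate 1, 0.575 over the 13 classes of Du'an replicate 2, 0.448 over the 12 classes of Nubian replicate 1 and 0.484 over the 13 classes of Nubian replicate 2. The points share a library and differ in depth between classes, and no value for pairs of other genes is set beside them. These values are therefore descriptions, and whether they exceed those of other genes was not tested.

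Granulosa states together were compared with the mean of the 9 non-granulosa classes. Of the 31 genes, 17 were called higher and 5 lower, where 29.2% of all genes tested were called higher and 21% lower. Among the synthesis genes 10 of 14 were called higher and none lower, with a median log2 fold change of 1.11, against 0.01 over all genes. The 5 called lower, ABCG1, ABCA1, NPC2, LIPA and STARD3, act in the lysosome, in transfer between membranes or in efflux from the cell. The balance of calls over all genes depended on the scaling: 58.2% of them were higher with edgeR's TMM factors, 40.1% with DESeq2-type size factors in edgeR and 31.7% in DESeq2, while the 17 members called higher became 16 in both. Those factors moved the median of all genes by -0.20 and -0.27 on the log2 scale here.

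LSS, which closes squalene epoxide into lanosterol, averaged 43.6, 57.7, 42.9 and 47.5 CPM over the granulosa states and 13.2, 21.9, 10.1 and 9.64 CPM over the other classes. All 4 goats thus had more LSS in granulosa nuclei (log2 fold change 1.66 ± 0.15 SE, edgeR adjusted p = 5.0e-13). MSMO1, which removes methyl groups from lanosterol's products, averaged 78.1, 116, 131 and 83.1 CPM against 25.4, 47.5, 57.0 and 36.3 CPM (1.43 ± 0.11, edgeR adjusted p = 4.4e-15). INSIG1, the sterol-regulated brake on SREBP, averaged 14.9, 17.6, 21.6 and 14.4 CPM against 2.52, 6.38, 6.19 and 2.88 CPM (1.73 ± 0.21, edgeR adjusted p = 1.8e-09). Both genes were higher on the granulosa side in every goat. In the progenitor-like state alone, MSMO1 stood at 24.4, 32.1, 48.9 and 28.7 CPM, below the mean of the other classes in each goat.

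SQLE, the squalene epoxidase, averaged 48.6, 62.3, 74.7 and 48.6 CPM in granulosa states against 10.9, 29.0, 25.9 and 17.9 CPM in the other classes (log2 fold change 1.44 ± 0.15 SE, edgeR adjusted p = 4.7e-11). SCAP, the SREBP escort, averaged 247, 190, 177 and 186 CPM against 77.2, 83.3, 89.5 and 79.1 CPM, so the averages were far apart in each goat (1.35 ± 0.09, edgeR adjusted p = 1.0e-16). Single classes of the 2 sides overlapped in SCAP. Theca-like nuclei stood at 149, 185, 213 and 181 CPM and cycling nuclei at 158, 143, 94.6 and 159 CPM. Theca-like nuclei were thus the higher in every goat but Du'an replicate 1. DHCR7, the last step of the pathway, had no count in pericyte-like nuclei, so its fold change was taken without the ciliated-like and pericyte-like sums, at 1.23 ± 0.16 (edgeR adjusted p = 4.3e-08). LIPE, which frees cholesterol from esters, lost its call in that fit (edgeR adjusted p = 0.0571).

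On the low side, ABCA1 averaged 28.0, 19.1, 18.1 and 19.1 CPM over the granulosa states and 172, 127, 121 and 142 CPM over the other classes. ABCA1, which loads cholesterol onto lipid-poor apolipoproteins, was thus lower in granulosa nuclei of every goat by a log2 fold change of -2.66 ± 0.13 SE (edgeR adjusted p = 5.4e-21). ABCG1, which passes cholesterol to larger particles, averaged 3.68, 1.04, 0.696 and 1.93 CPM against 16.1, 11.9, 7.88 and 12.5 CPM (-3.14 ± 0.65, edgeR adjusted p = 6.4e-05). NPC2, which carries cholesterol inside the lysosome, and LIPA, the lysosomal lipase, were lower by -1.67 and -1.22 on the log2 scale, again in all 4 goats.

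**Figure D2:**
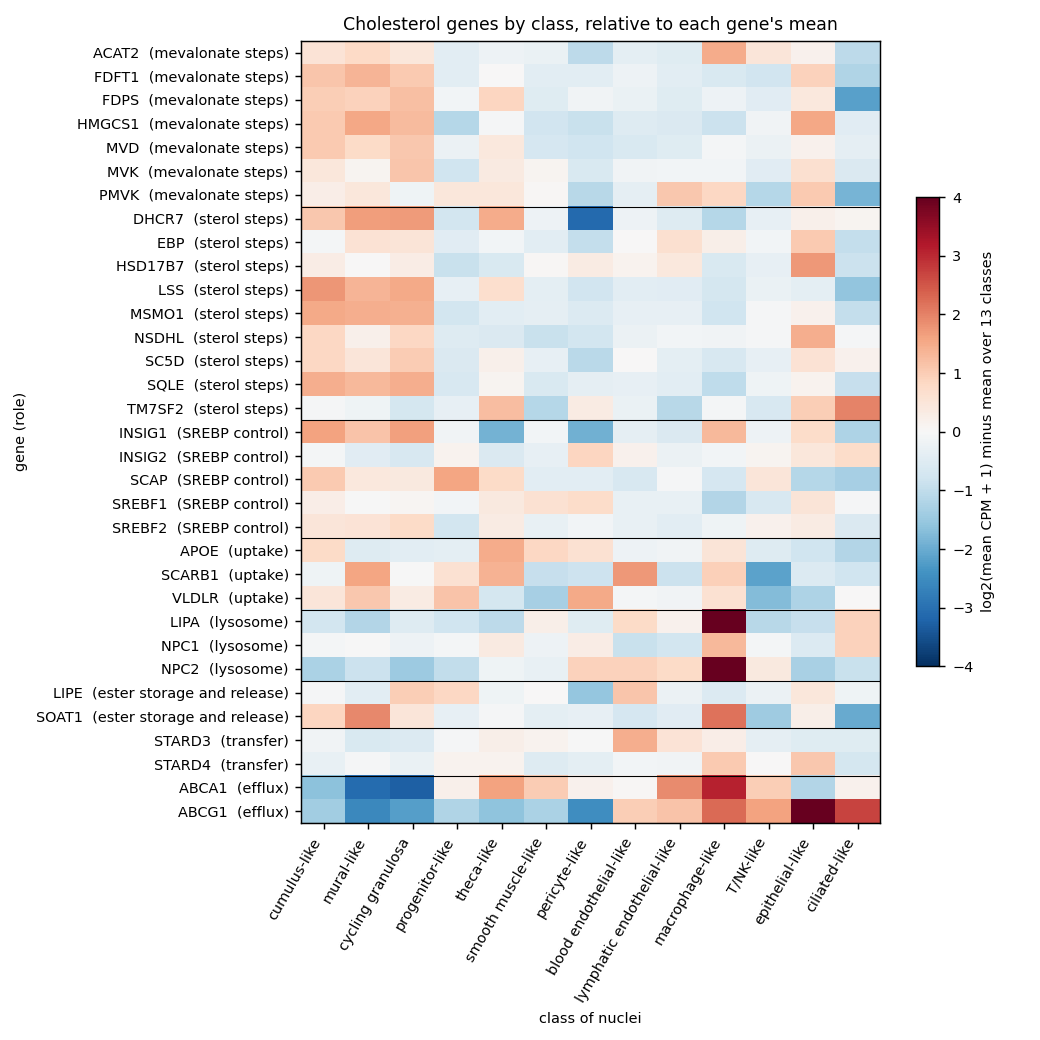
Level of each of the 33 genes in 13 cell classes, as log2(mean CPM + 1) minus that gene's mean over classes. Rows are genes grouped by role and columns are classes. Synthesis genes are high in cumulus-like, mural-like and cycling columns, and ABCA1, LIPA and NPC2 in the macrophage-like column.

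Progenitor-like nuclei were compared with the mean of the mural-like and cumulus-like states. Of the 31 genes, 15 were called lower in progenitor-like nuclei and 4 higher, where 10% of all genes were called lower and 14.7% higher. Among synthesis genes 12 of 14 were lower and none higher, and their median log2 fold change was -1.29 against -0.03 over all genes. Only PMVK and TM7SF2, of the synthesis genes tested, were not called, and PMVK averaged 2.21 to 3.91 CPM and TM7SF2 1.69 to 3.29 CPM over the 4 states. Progenitor-like markers were chosen in part by the study on these same nuclei. In subcluster 2, the progenitor-like state, 5 of 6 were raised, and the list averaged 2.40 on the log2 scale. Unnamed subcluster 13 had 4 of 6 raised and an average of 2.49. It was left unnamed because its luteal markers were raised more on average than the list of any granulosa state. CYP11A1, a theca marker, stood at 75.4, 136, 41.4 and 87.3 CPM in progenitor-like nuclei. It stood at 57.5 to 158 CPM in mural-like and 3.81 to 12.1 CPM in cumulus-like nuclei. How mature the progenitor-like state is was not tested.

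HMGCS1, which makes the precursor of mevalonate, stood at 8.45, 10.5, 18.0 and 7.83 CPM in progenitor-like nuclei and at 40.7, 75.8, 77.8 and 47.6 CPM in the mural-like and cumulus-like states. It was lower in all 4 goats (log2 fold change -2.38 ± 0.30 SE, edgeR adjusted p = 1.5e-08). MSMO1 stood at 24.4, 32.1, 48.9 and 28.7 CPM against 136, 177, 186 and 118 CPM (-2.14 ± 0.22, edgeR adjusted p = 1.3e-10). DHCR7 stood at 4.07, 2.09, 7.10 and 3.32 CPM against 17.7, 21.7, 16.8 and 23.7 CPM (-2.21 ± 0.30, edgeR adjusted p = 1.5e-07). For all 3 genes the highest progenitor-like goat lay below the lowest goat of the other states.

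SQLE stood at 19.8, 17.4, 28.0 and 16.4 CPM against 75.4, 93.0, 99.6 and 66.9 CPM (log2 fold change -1.93 ± 0.29 SE, edgeR adjusted p = 6.4e-07). LSS stood at 19.3, 16.8, 20.1 and 15.7 CPM against 73.5, 87.0, 56.0 and 66.2 CPM (-1.87 ± 0.27, edgeR adjusted p = 3.3e-07). SOAT1, which esterifies cholesterol for storage, stood at 21.9, 41.9, 36.8 and 26.1 CPM against 52.2, 97.7, 93.8 and 126 CPM (-1.74 ± 0.26, edgeR adjusted p = 6.3e-07). The other genes called lower were FDFT1, INSIG1, MVK, SC5D, SREBF2, MVD, NSDHL, FDPS and HSD17B7, with log2 fold changes from -1.53 to -1.05. SREBF2 itself, which encodes the factor that drives these enzymes, stood at 48.7, 46.8, 72.3 and 58.4 CPM against 135, 149, 145 and 114 CPM (-1.23 ± 0.20, edgeR adjusted p = 2.4e-06).

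SCAP went the other way from SREBF2. It stood at 411, 285, 297 and 294 CPM in progenitor-like nuclei and at 232, 178, 187 and 160 CPM in the other states (log2 fold change 0.87 ± 0.17 SE, edgeR adjusted p = 0.00011). Among the classes compared, the SCAP mean was highest in progenitor-like nuclei, at 322 CPM. Unnamed cluster 4, which entered no comparison, held SCAP at 345 CPM (7214 UMIs) summed over goats. ABCA1 stood at 95.6, 124, 67.7 and 71.9 CPM against 28.8, 12.2, 16.4 and 13.4 CPM, higher in every goat (2.56 ± 0.22, edgeR adjusted p = 3.6e-13). LIPE (1.44 ± 0.39, edgeR adjusted p = 0.0041) and ABCG1 (1.54 ± 0.44, edgeR adjusted p = 0.0074) were called higher from low levels, at most 6.98 CPM in any progenitor-like goat.

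**Figure D3:**
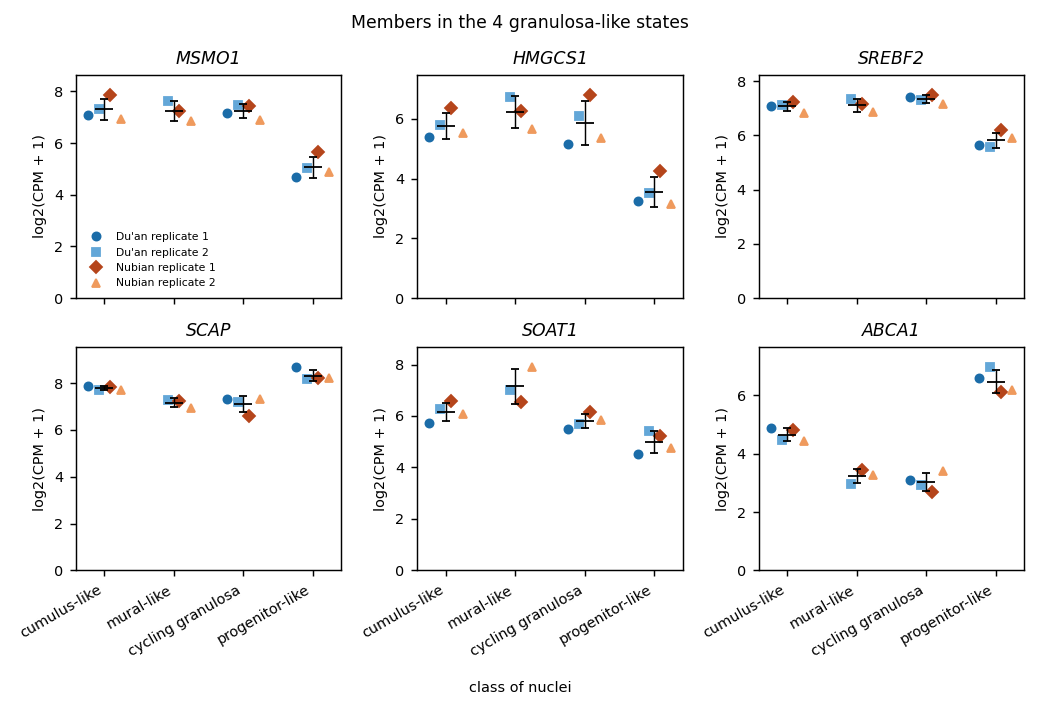
Levels of MSMO1, HMGCS1, SREBF2, SCAP, SOAT1 and ABCA1 (vertical axes, log2(CPM + 1)) in the 4 granulosa states. Points are goats and bars the mean ± SD. Progenitor-like nuclei are lowest for MSMO1, HMGCS1 and SREBF2, and highest for SCAP and ABCA1.

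Mural-like and cumulus-like nuclei were set against each other, and 3 goats had both. The fit also used the cumulus-like sum of Du'an replicate 1, while the levels below are those of the 3 goats. Each goat's mural-like nuclei came from subclusters of its own, with 1463 of 1479 nuclei of subcluster 6 from Du'an replicate 2, 4609 of 4726 of subcluster 1 and 504 of 513 of subcluster 10 from Nubian replicate 1, and 387 of 388 of subcluster 11 from Nubian replicate 2. Subcluster 11 also had 7 of 9 cycling markers raised. On the cumulus-like side, 1828 of 2012 nuclei of subcluster 4 came from Du'an replicate 2 and 1823 of 1934 of subcluster 5 from Nubian replicate 1. Cumulus-like subclusters 3 and 7 held nuclei of every goat. The mural-like state was called higher for 2 of 31 genes and lower for 3, where 6.86% of all genes were called higher and 7.3% lower, and none of the 14 synthesis genes was called. SCARB1, the receptor for high-density lipoprotein, stood at 43.8, 45.2 and 362 CPM in mural-like and at 35.8, 39.2 and 55.4 CPM in cumulus-like nuclei of Du'an replicate 2 and Nubian replicates 1 and 2. Its call (log2 fold change 1.56 ± 0.39 SE, edgeR adjusted p = 0.0033) rested on Nubian replicate 2, without which the adjusted p was 0.483. SOAT1 stood at 127, 92.2 and 238 CPM against 75.3, 95.4 and 66.5 CPM, and its call (1.25 ± 0.28, edgeR adjusted p = 0.0012) was lost without the same goat, at an adjusted p of 0.16.

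ABCA1 was lower in mural-like nuclei of all 3 goats, at 6.78, 9.93 and 8.62 CPM against 21.3, 26.8 and 20.7 CPM (log2 fold change -1.19 ± 0.28 SE, edgeR adjusted p = 0.0019). APOE, the lipoprotein ligand of receptors in this list, stood at 32.4, 35.3 and 25.0 CPM against 142, 84.2 and 42.3 CPM (-1.18 ± 0.34, edgeR adjusted p = 0.014). ABCG1 was at 0.132 to 0.908 CPM against 1.47 to 2.18 CPM (-1.99 ± 0.57, edgeR adjusted p = 0.013). APOE and ABCG1 each lost their call without Nubian replicate 1, and APOE also without Du'an replicate 2.

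Cycling granulosa nuclei, marked by proliferation genes, were set against the mural-like and cumulus-like states. The class joined subcluster 8 (864 nuclei of 4 goats, with 4 of 6 cumulus-like and no mural markers raised) and subcluster 9 (845 nuclei, 803 of them from Nubian replicate 1, with all 9 mural markers raised). CYP19A1, the aromatase of mural granulosa, stood in cycling nuclei at 38.3, 267, 1642 and 73.7 CPM, far higher in Nubian replicate 1 than in the other goats, and the part of this mix in the comparison was not tested. One gene of 31 was called higher and 2 lower, against 6.39% and 2.21% of all genes, and no synthesis gene was called. LIPE stood at 3.33, 7.78, 3.70 and 4.58 CPM against 1.56, 1.92, 1.32 and 1.33 CPM (log2 fold change 1.64 ± 0.38 SE, edgeR adjusted p = 0.0026). ABCA1 stood at 7.50, 6.55, 5.37 and 9.66 CPM against 28.8, 12.2, 16.4 and 13.4 CPM (-1.13 ± 0.27, edgeR adjusted p = 0.0029). SOAT1 stood at 44.2, 50.8, 70.5 and 56.9 CPM against 52.2, 97.7, 93.8 and 126 CPM (-0.95 ± 0.25, edgeR adjusted p = 0.0074). Leaving out Du'an replicate 2 or Nubian replicate 1 left no gene called higher and 1 called lower.

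Theca-like nuclei were set against the granulosa states, the partner cells in estrogen production. Of 31 genes, 2 were called higher and 7 lower, where 9.12% of all genes were called higher and 11.9% lower. Over all genes, 43.4% of calls were higher with TMM factors, 66.7% with DESeq2-type factors and 70.4% in DESeq2, whose factors moved the median of all genes by 0.25 and 0.41 on the log2 scale. The 7 members called lower became 4 in both, and the 2 called higher stayed 2.

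ABCA1 stood at 316, 183, 188 and 267 CPM in theca-like nuclei and at 28.0, 19.1, 18.1 and 19.1 CPM in the granulosa states. It was higher in theca-like nuclei of every goat (log2 fold change 3.18 ± 0.20 SE, edgeR adjusted p = 6.1e-17). APOE stood at 99.7, 131, 134 and 143 CPM against 22.1, 64.3, 43.7 and 26.1 CPM, also higher in all 4 goats (1.41 ± 0.28, edgeR adjusted p = 0.00017). APOE was the gene of the list whose highest class, among the classes compared, was theca-like nuclei. The theca-like goats did not overlap with smooth-muscle-like nuclei, the next class by mean, at 61.3 to 95.3 CPM. They did overlap with cumulus-like nuclei, which reached 142 CPM in Du'an replicate 2. Fibroblast-like nuclei, 417 of 438 from Nubian replicate 1, entered no comparison and held APOE at 170 CPM (283 UMIs) summed over goats.

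MSMO1 stood at 33.2, 36.1, 64.4 and 31.8 CPM in theca-like nuclei against 78.1, 116, 131 and 83.1 CPM in granulosa states (log2 fold change -1.76 ± 0.27 SE, edgeR adjusted p = 1.5e-06). FDFT1, the squalene synthase, stood at 33.2, 49.7, 39.6 and 28.6 CPM against 49.3, 73.2, 65.9 and 59.1 CPM (-1.14 ± 0.27, edgeR adjusted p = 0.0012). Both were lower in theca-like nuclei of every goat. NSDHL (-1.43), HMGCS1 (-1.13), SOAT1 (-1.01) and SQLE (-1.21) were also called lower on the log2 scale, SQLE in 2 of 4 goats only, and NSDHL, HMGCS1 and SOAT1 lost their calls with the DESeq2-type factors. INSIG1 was seen as 0, 1, 0 and 1 UMI in theca-like nuclei, so that its log2 fold change of -3.57 ± 0.73 rests on 2 UMIs (edgeR adjusted p = 0.00022).

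Against the mean of all other classes, theca-like nuclei were called higher for 5 of 31 genes and lower for 4, where 9.54% of all genes were called higher and 8.26% lower. Over all genes, 53.6% of calls were higher with TMM factors, 65.4% with DESeq2-type factors and 65.9% in DESeq2. The median of the members was 0.03 and that of all genes -0.13. SCARB1 stood at 133, 99.4, 94.1 and 200 CPM against a mean of 36.8, 37.1, 38.4 and 56.7 CPM over the other classes (log2 fold change 1.23 ± 0.31 SE, edgeR adjusted p = 0.0035). ABCA1 was higher by 1.45 ± 0.19 (edgeR adjusted p = 5.9e-08) and APOE by 1.42 ± 0.27 (edgeR adjusted p = 0.0001), both in all 4 goats.

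DHCR7 stood at 16.6, 11.3, 19.8 and 44.5 CPM in theca-like nuclei, with a log2 fold change of 1.15 ± 0.37 SE without the ciliated-like and pericyte-like sums (edgeR adjusted p = 0.0218) and no call without Nubian replicate 2. SCAP was called higher by 0.54 ± 0.17 (edgeR adjusted p = 0.017) but not in the fit without the ciliated-like and pericyte-like sums (edgeR adjusted p = 0.103). Of the 4 called lower, ABCG1 and LIPA were seen as 1 and 2 UMIs in all theca-like nuclei together and INSIG1 as 2, and MSMO1 was lower by -0.83 ± 0.26 (edgeR adjusted p = 0.019). These calls changed most with the processing, as given at the end.

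**Figure D4:**
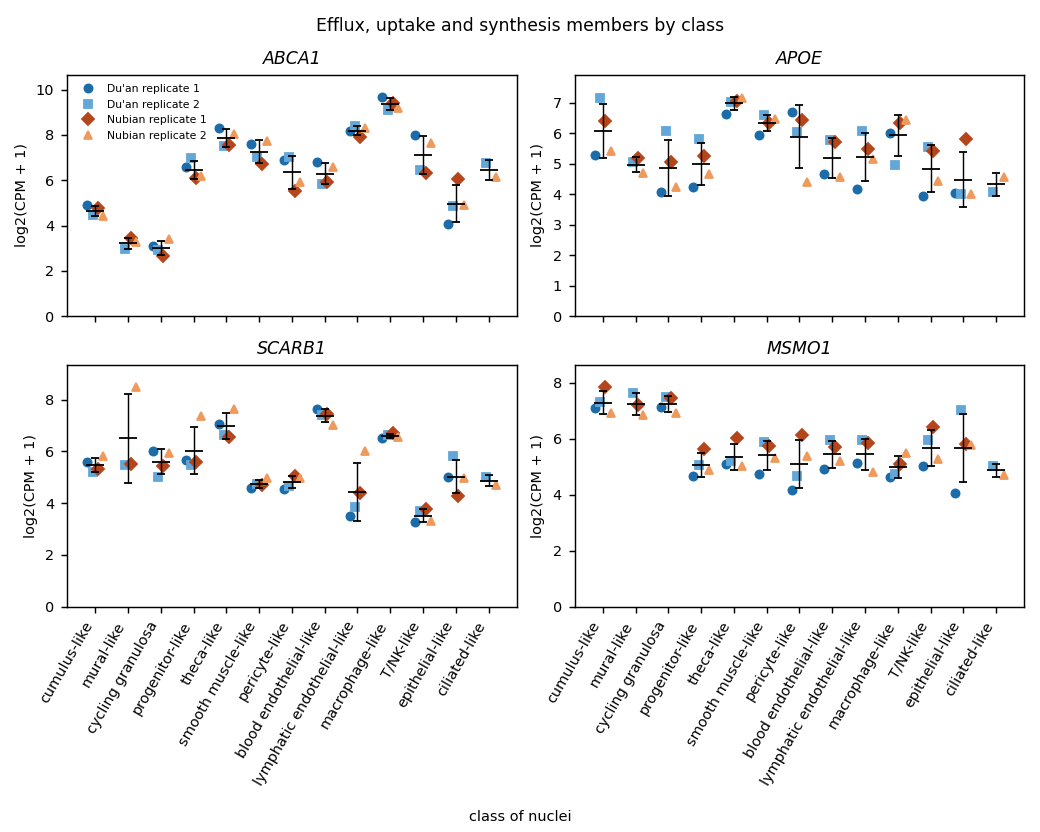
Levels of ABCA1, APOE, SCARB1 and MSMO1 (vertical axes, log2(CPM + 1)) in 13 cell classes. Points are goats and bars the mean ± SD. Theca-like nuclei have the highest mean of APOE and stand well above the granulosa states for ABCA1, while macrophage-like nuclei are highest for ABCA1.

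Macrophage-like nuclei held the largest differences of the list. Against the mean of the other classes, 10 of 31 genes were called higher and 8 lower, where 32.5% of all genes were called higher and 20.9% lower, so these shares are near those of all genes. The 3 lysosomal and both efflux genes were all called higher, and none of 14 synthesis genes was, with 6 called lower. The 6 macrophage markers summed to 2194 to 6033 CPM in this class and to 2.89 to 111 CPM in the others.

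LIPA stood at 255, 177, 220 and 223 CPM in macrophage-like nuclei against 1.77, 4.18, 4.26 and 5.84 CPM in the mean of the other classes (log2 fold change 5.49 ± 0.17 SE, edgeR adjusted p = 3.2e-29). NPC2 stood at 148, 169, 191 and 323 CPM against 5.19, 4.70, 8.03 and 9.67 CPM (4.86 ± 0.15, edgeR adjusted p = 1.6e-29). ABCA1 stood at 829, 550, 689 and 575 CPM against 85.8, 60.2, 52.2 and 65.3 CPM (3.39 ± 0.14, edgeR adjusted p = 3.5e-25). For all 3 genes, every macrophage-like goat lay above every goat of every other class.

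SOAT1, the ester-storing enzyme, stood at 198, 192, 208 and 142 CPM against 27.0, 38.0, 44.5 and 26.5 CPM (log2 fold change 2.49 ± 0.18 SE, edgeR adjusted p = 4.4e-16). ABCG1 was higher by 2.80 ± 0.29 (edgeR adjusted p = 1.7e-11) and NPC1, which exports cholesterol from the lysosome, by 1.48 ± 0.16 (edgeR adjusted p = 8.5e-11). INSIG1, STARD4 and SCARB1 were called higher by 1.17 to 1.38, and APOE by 0.71, a call lost when Du'an replicate 1, Nubian replicate 1 or Nubian replicate 2 was left out. On the low side, SREBF1 stood at 2.38, 3.28, 7.77 and 0 CPM against 7.60, 7.80, 10.9 and 9.18 CPM (-1.48 ± 0.40, edgeR adjusted p = 0.0017). SQLE (-1.19), MSMO1 (-0.82), SCAP (-0.76) and FDFT1 (-0.62) were lower in all 4 goats, and HMGCS1, LSS and SC5D in 3. DHCR7 could not be fitted in this comparison, and without the ciliated-like and pericyte-like sums it was lower by -1.81 ± 0.38 (edgeR adjusted p = 9.73e-05).

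The macrophage-like class was made of 2 clusters that differed in depth, with 855 nuclei at a median of 3333 UMIs and 617 nuclei at a median of 846 UMIs. The following values were chosen after they were seen and carry no test. The clusters also differed in macrophage markers. C1QA stood at 73.1, 227, 79.3 and 52.3 CPM in the deeper cluster and at 1084, 3829, 1747 and 3517 CPM in the shallower one. C1QB and C1QC went with C1QA. MRC1 was higher in the deeper cluster, at 847, 402, 561 and 381 CPM against 120, 172, 251 and 297 CPM. CSF1R and MSR1 differed in direction between goats. ABCA1 stood at 1020, 597, 778 and 1078 CPM in the deeper cluster and at 142, 233, 167 and 96.5 CPM in the shallower one. SOAT1 stood at 235, 213, 230 and 209 CPM against 65.7, 54.2, 76.0 and 78.4 CPM.

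Of the lysosomal genes, NPC2 and LIPA ran the other way between these clusters, and NPC1 did not. NPC2 stood at 39.6, 57.0, 76.7 and 52.3 CPM in the deeper and at 536, 927, 858 and 580 CPM in the shallower cluster. LIPA stood at 161, 169, 170 and 149 CPM against 591, 236, 509 and 294 CPM. NPC1 stood at 64.0, 104, 72.8 and 99.9 CPM in the deeper cluster against 43.8, 60.5, 68.4 and 31.7 CPM. It was higher in the deeper cluster of each goat, though the goats of the clusters overlapped. For ABCA1, SOAT1, NPC2 and LIPA they did not overlap. The part of depth or of a difference in macrophage type in the contrast was not tested.

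**Figure D5:**
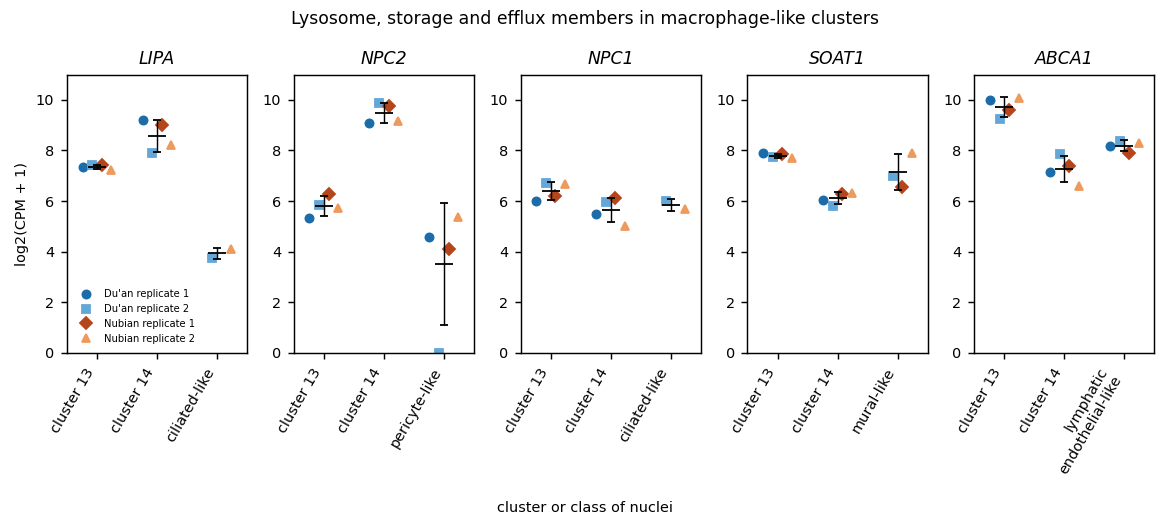
Levels of LIPA, NPC2, NPC1, SOAT1 and ABCA1 in the 2 macrophage-like clusters (numbers 13 and 14) and in the highest other class. Points are goats and bars the mean ± SD. Cluster 13 is higher for ABCA1 and SOAT1, and cluster 14 for NPC2 and LIPA.

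Taking each of the 13 classes against the mean of the others gave 403 tests of the 31 genes. Of these, 94 (23.3%) were called higher and 63 (15.6%) lower, where 18.9% and 12.2% of the tests of all genes were. Cumulus-like nuclei were called higher for 15 genes and lower for 4 (17.9% and 15.3% of all genes), mural-like for 15 and 4 (17.2% and 14.3%), and cycling for 16 and 4 (20.7% and 17%). Progenitor-like nuclei were called higher for 4 and lower for 6 (18.5% and 11.7%). Over all genes, 53.9% of the cumulus-like calls were higher with TMM factors, against 41.4% with DESeq2-type factors and 33.6% in DESeq2. These shares were 54.6%, 38.1% and 32.7% for mural-like, 54.9%, 44.6% and 39.0% for cycling, and 61.4%, 44.3% and 36.8% for progenitor-like nuclei. Outside granulosa they were 58.8%, 75.1% and 77.5% for ciliated-like, 67.9%, 77.4% and 80.8% for pericyte-like, and 73.7%, 66.1% and 59.9% for smooth-muscle-like nuclei. Over the 13 classes the other factors moved the median of all genes by -0.26 (mural-like, DESeq2) to 0.33 (ciliated-like, DESeq2), and no called gene of the list changed direction. Leaving out the ciliated-like and pericyte-like sums raised the count of genes called lower from 3 to 9 of 31 in blood endothelial-like, from 4 to 9 in lymphatic endothelial-like, from 5 to 12 in T or natural killer-like, from 6 to 10 in progenitor-like and from 9 to 14 in smooth-muscle-like nuclei.

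Outside granulosa and theca, blood endothelial-like nuclei were called higher for 6 genes and lower for 3 (21.1% and 9% of all genes). SCARB1 stood at 196, 168, 174 and 131 CPM there, the class with its highest mean, and was higher than in the mean of the other classes by a log2 fold change of 2.05 ± 0.24 SE (edgeR adjusted p = 1.3e-09). STARD3, a sterol carrier of late endosomes, stood at 65.2, 39.5, 20.8 and 45.5 CPM (1.61 ± 0.18, edgeR adjusted p = 6.7e-10). Lymphatic endothelial-like nuclei were called higher for 5 and lower for 4 (18.1% and 8.53% of all genes), with ABCA1 higher by 2.16 ± 0.15 (edgeR adjusted p = 3.3e-16) and ABCG1 by 1.83 ± 0.33 (edgeR adjusted p = 1.6e-05).

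Epithelial-like nuclei were called higher for 8 genes and lower for 4 (15% and 9.68% of all genes). ABCG1 stood at 62.7, 214, 27.9 and 298 CPM, a spread of over an order of magnitude, and was higher than in the other classes by a log2 fold change of 5.03 ± 0.26 SE (edgeR adjusted p = 9.2e-21). HSD17B7, a reductase of the sterol steps, stood at 62.7, 62.6, 46.5 and 69.1 CPM, above the range of every other class (1.83 ± 0.26, edgeR adjusted p = 3.2e-07). Epithelial-like sums came from 23, 90, 36 and 391 nuclei. Ciliated-like nuclei, in 2 goats, were called higher for 3 and lower for 6 (16.1% and 11.3% of all genes), with ABCG1 at 47.3 and 71.2 CPM (3.43 ± 0.45, edgeR adjusted p = 2.8e-08) and NPC1 and TM7SF2 also higher.

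Smooth-muscle-like nuclei were called higher for 2 genes, APOE (log2 fold change 0.96 ± 0.23 SE, edgeR adjusted p = 0.00098) and ABCA1 (1.06 ± 0.17, edgeR adjusted p = 1.5e-06), and lower for 9, against 18.8% and 6.71% of all genes. The 9 held 6 of the 14 synthesis genes, with log2 fold changes from -1.48 (TM7SF2) to -0.54 (FDFT1). Among T or natural killer-like nuclei 4 genes were called higher and 5 lower (31.7% and 22.1% of all genes), with SCARB1 lowest of them at -2.14 ± 0.38 (edgeR adjusted p = 6.7e-06). Pericyte-like nuclei had 1 gene called higher, VLDLR, and 2 lower (8.32% and 3.93% of all genes). DHCR7 had no count in pericyte-like nuclei of any goat, where a floor of 3 counts over the class was worth 3.90 CPM. The plain mean over the other classes, not taken on the log scale, was 11.8 CPM, at least 3.02-fold higher. That mean included cycling (27.2 CPM) and mural-like nuclei (26.3 CPM), the highest classes.

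Other cholesterol genes were counted from a separate list of 31, of which 27 were tested, and 8 genes of fatty acid synthesis. Theca-like nuclei were called higher for 6 and lower for 2 of the 27, and for 3 and 0 of the 8, against the other classes (9.54% and 8.26% of all genes). Granulosa states had 9 higher and 6 lower of the 27 and 6 higher and 1 lower of the 8 (29.2% and 21% of all genes). Progenitor-like nuclei against the mural-like and cumulus-like states had 3 higher and 4 lower of the 27, and 0 higher and 4 lower of the 8 (14.7% and 10% of all genes). In macrophage-like nuclei the counts were 9 and 7, and 1 and 6 (32.5% and 20.9% of all genes). The shares of the 27 in granulosa and macrophage-like nuclei are near those of all genes.

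Nubian and Du'an goats were compared class by class in the 11 classes with 2 goats of each breed. No gene of the list was called in 222 tests with edgeR, and no gene at all was called (0% of 93592 tests). At an unadjusted p under 0.05 there were 5 of the 222 tests (2.25%) and 3749 of all tests (4.01%), and DESeq2 called 0 of the list and 314 genes. The smallest unadjusted p of the list was that of ABCA1 in pericyte-like nuclei, at 119 and 130 CPM in Du'an goats against 45.8 and 60.6 CPM in Nubian goats (Nubian minus Du'an log2 fold change -1.27 ± 0.43 SE, edgeR adjusted p = 0.846). The median size of the log2 fold change over the 222 tests was 0.26 and the median SE 0.43, so differences of that size were not detectable with 2 goats a breed.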

How the data were processed

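The authors deposited UMI counts per gene and nucleus (10x Genomics 3′ libraries) for each goat, unnormalized, made with Cell Ranger 5.0.0 per the submitters' processing notes (the matrix headers name software version 3.1.0), with Seurat named for later steps. The authors' methods give the genome by a link to an NCBI goat assembly and not by a build name. Spreadsheets of the authors' own cluster comparisons were also deposited and were not used. Nuclei beyond 2 SD of their library's mean depth or gene number, or over 20% mitochondrial UMIs, were removed. Scrublet marked 151 nuclei (0.312%), too few to have worked. These were removed, all from Du'an replicate 2, and an alternative removed the 10% of nuclei with the highest scores. In scanpy 1.11.5 (Python 3.11.15), 2000 variable genes without cholesterol or marker genes, 30 principal components, 20 neighbours and Leiden resolution 0.8 (0.5 within granulosa nuclei) gave 21 clusters and 13 granulosa subclusters. A class needed at least 3 of its markers raised, and clusters with a median depth under 0.5 of their libraries' stayed unnamed unless a marker of the type was among their 10 leading genes (as in macrophage-like cluster 14), limits set after the data were seen. A granulosa subcluster whose luteal markers were raised more on average than every state's list also stayed unnamed. Counts were summed per goat and class (at least 20 nuclei, 49 sums), and fitted with edgeR 4.0.16 (R 4.3.3, TMM, filterByExpr, quasi-likelihood test, goat as block). A mean over classes weights each class equally on the log scale. DESeq2 1.42.0 was an alternative. P-values of class comparisons measure how far differences between classes vary from goat to goat, with a spread per gene shared by all classes. Those of the breed comparison measure the spread between goats, 1 library each. The members, the other gene lists and the comparisons were chosen with earlier results of these data known. Values per goat are given for up to 6 called genes per comparison and direction with the largest fold change and 1 direction in every goat. SREBF2 in progenitor-like and SOAT1 in mural-like nuclei were added after their values were seen. The tests were tested on simulated data with 200 changed genes. In the comparison of breeds, each number pairs only goats of different breeds, and the check of the pairing is given with the limits.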

Additional observations from a re-analysis of the deposited data

Results flagged for a closer look

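These 4 values lie in unnamed clusters that entered no comparison, and each is over 2 times the highest mean of any class compared. They are sums over all goats of a cluster, with no test. Cluster 7 held 3045 shallow nuclei. Its leading genes, LOC102168680, LOC102175876 and LOC102168959, also led cumulus-like cluster 3, and the hemoglobin gene HBBC came next. APOE stood at 365 CPM (1429 UMIs) in cluster 7 against 127 CPM in theca-like nuclei, the highest of the classes compared. ACAT2, the first enzyme of the mevalonate steps, which did not pass the filter on low counts, stood at 14 CPM (55 UMIs) in the same cluster against 4.72 CPM in macrophage-like nuclei. APOE stood at 311 CPM (46 UMIs) in granulosa subcluster 12, which held 96 nuclei. VLDLR, a receptor of APOE-bearing particles, stood at 112 CPM (41 UMIs) in granulosa subcluster 13, 91 nuclei of Nubian replicate 1, against 19.3 CPM in pericyte-like nuclei.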

How the results depend on the processing

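Of 85 calls of genes in 7 comparisons (theca-like and macrophage-like against the other classes, theca-like against granulosa states, granulosa states against the rest, and the 3 among granulosa states), 57 kept their direction and side of the threshold under every alternative that gave a value; over all alternatives 1160 of 1240 values did, 80 lost their call and 0 reversed. In theca-like nuclei against the other classes, the 5 higher ranged from 3 (without Nubian replicate 2) to 5 over the leave-one-out fits, and the 4 lower from 0 (without Du'an replicate 2) to 3, with 2 in DESeq2, 1 with no replicate block (the goat left out of the model), 0 with the highest doublet scores removed and 2 with all genes allowed among variable genes. Against granulosa states, the 7 lower became 4 with RLE normalization, 4 in DESeq2 and 3 (without Du'an replicate 2) to 8 leaving out 1 goat. For mural-like against cumulus-like nuclei, the 2 higher became 0 without Nubian replicate 2 (0 to 2 over the leave-one-out fits) and 4 at Leiden resolution 0.4, and the 3 lower 1 to 3 leaving out 1 goat, 1 without Nubian replicate 1. For cycling nuclei, the 1 higher was 2 in DESeq2, 2 with shallow clusters named, 2 with ciliated-like and pericyte-like sums left out, 0 at resolution 0.4, 0 with the highest doublet scores removed, 0 with all genes allowed and 0 to 1 leaving out 1 goat; the 2 lower were 0 at resolution 0.4 and 1 to 3 leaving out 1 goat. In macrophage-like nuclei the 8 lower were 4 with cluster 14 as a class of its own, and 5 (without Du'an replicate 2) to 9 leaving out 1 goat. Between breeds, no filter on low counts gave 1 call in place of 0, and the replicate block and the crossed replicate block gave 0. Over the 11 classes, deviations of same-numbered goats correlated from -0.258 to 0.233. With 2 goats a breed and no reference for such values, they cannot decide whether the numbers pair goats. Thinning to 1000 UMIs moved the summed synthesis level of ciliated-like nuclei from 177 to 221 CPM. The causes were not tested. At resolution 0.4 no theca-like class was found. The alternatives on shallow clusters, macrophage clusters, the crossed block and the 2 classes left out were chosen after seeing the data. In 24 fits of members, 5 of them of called members, a class without counts left no estimate, as for 20.5% of all genes in some class. The search for promoter motifs was not run.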

Other observations

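Granulosa subcluster 13 (91 nuclei, all from Nubian replicate 1, with PTGFR among its markers) also held SCARB1 at 291 CPM and ABCA1 at 203 CPM. The summed level of the 16 synthesis genes was 256 CPM in unnamed cluster 4 (4597 nuclei, mostly from Du'an replicate 1 and Nubian replicate 2) and 586 CPM in cluster 7. The fibroblast-like class, named in Nubian replicate 1 only (417 nuclei), held the synthesis genes at 215 CPM.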
